A study of Mus musculus with 22 samples.

Results

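The distribution of 2 chromatin marks, γH2AX and histone H3.3, was compared within 1 cross of mice that carry a Robertsonian translocation, the join of chromosomes 8 and 12 at their centromeres. The comparison took 7 of the 22 libraries of the series: 3 immunoprecipitations against γH2AX, 3 against H3.3 and 1 input, chosen by their titles. The question was where the marks agree and where they part on 8 and 12, set beside the other 17 autosomes. All 6 immunoprecipitations came from whole testis of F1 animals of CBy.RBF-Rb(8.12)5Bnr/J mated with B6.SPRET7MOLF12, labelled heterozygous for a single translocation. The γH2AX libraries (1Rb_M replicates 1 to 3) were made at 4 weeks with the Millipore antibody to H2A.X phosphorylated at Ser139, clone JBW301. The H3.3 libraries (1Rb replicates 1 to 3) were made at 6 weeks with a Millipore antibody to H3.3. The input, titled 1Rb_M, was made at 4 weeks and by its strain label comes from another F1, whose parents are C57BL/6J and CBy.RBF-Rb(8.12)5Bnr/J. Both marks are divided by it, so it enters neither the window tests nor the summed-count tests, which set the marks' counts directly against each other.

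The groups set beside them were 3Rb, an F1 of B6.SPRET7MOLF12 and RBF/Dnj heterozygous for 3 translocations, with 3 libraries per mark at the same ages, and 2 controls without a translocation. The controls were 1 γH2AX library of C57BL/6J (B6) at 4 weeks, with an Upstate antibody label, and 3 H3.3 libraries of B6.SPRET7MOLF12 (Cg) at 6 weeks. Each control had 1 input, of B6 at 4 weeks and of Cg at 6 weeks. The Cg input differs from the 1Rb_M input in strain and age, so an exchange of inputs changes these too. The strain B6.SPRET7MOLF12 is a parent of both carrier crosses, so that the H3.3 control shares it and the γH2AX control does not. The labels do not say that replicates are separate animals, so the p-values cover the spread among these libraries and no more, which may be technical. Mark, age and antibody change together between the γH2AX and H3.3 libraries and cannot be told apart. In whole testis, fewer cells of a type and less signal per cell cannot be told apart either.

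γH2AX is histone H2AX phosphorylated by ATM and ATR around DNA breaks and, in meiotic prophase, on chromosomes that have not synapsed; in pachytene spermatocytes it coats the X and Y in the sex body, where transcription is silenced. H3.3 is the replacement variant of histone H3, placed into chromatin outside DNA replication by the HIRA and DAXX-ATRX chaperones, mostly at transcribed genes, and in spermatocytes also on the silenced sex chromosomes. In a heterozygous carrier the translocated chromosome pairs with its 2 separate homologues as a trivalent, and the stretches next to the joined centromeres are the ones known to synapse late or not at all.

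Each library gave counts in 54520 windows of 50 kb. The totals of the 6 immunoprecipitations ran from 43811589 to 64997400 counts, with 677 to 1009 counts in the median window, a counting error of 3.15 to 3.84% at that window. Values below are log2 ratios of a library to the 1Rb_M input, relative to the median window of the 17 other autosomes, unless they are called a difference. γH2AX replicate 3 stood apart from the other γH2AX libraries: 18.9% of its counts lay on X, against 12.3% in replicate 1 and 12.3% in replicate 2, while H3.3 libraries held 5.60 to 5.80% there and the input 3.16%. Across 43107 windows of the other autosomes, with the paired libraries over separate inputs, the γH2AX replicates correlated with each other at r = 0.31 to 0.59 and the H3.3 replicates at 0.93 to 0.96.

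Next to the joined centromeres the marks parted: γH2AX was high over the proximal 10 Mb of 8 and 12 (3 to 13 Mb of mm10, the first windows with data), and H3.3 was raised by much less. On proximal 8 the median window stood at a log2 of 0.64, 0.59 and 1.12 in γH2AX replicates 1 to 3, against 0.16, 0.13 and 0.14 in H3.3 replicates 1 to 3. On proximal 12 it stood at 0.76, 0.61 and 1.33 for γH2AX and at 0.10, 0.077 and 0.11 for H3.3. The libraries of the marks did not overlap on either chromosome, and γH2AX replicate 3 was the highest on both. At the same distance from the centromere of the other 17 autosomes, the median window stood at 0.014, 0.0093 and −0.0076 for γH2AX and at −0.075, −0.092 and −0.096 for H3.3.

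**Figure D1:**
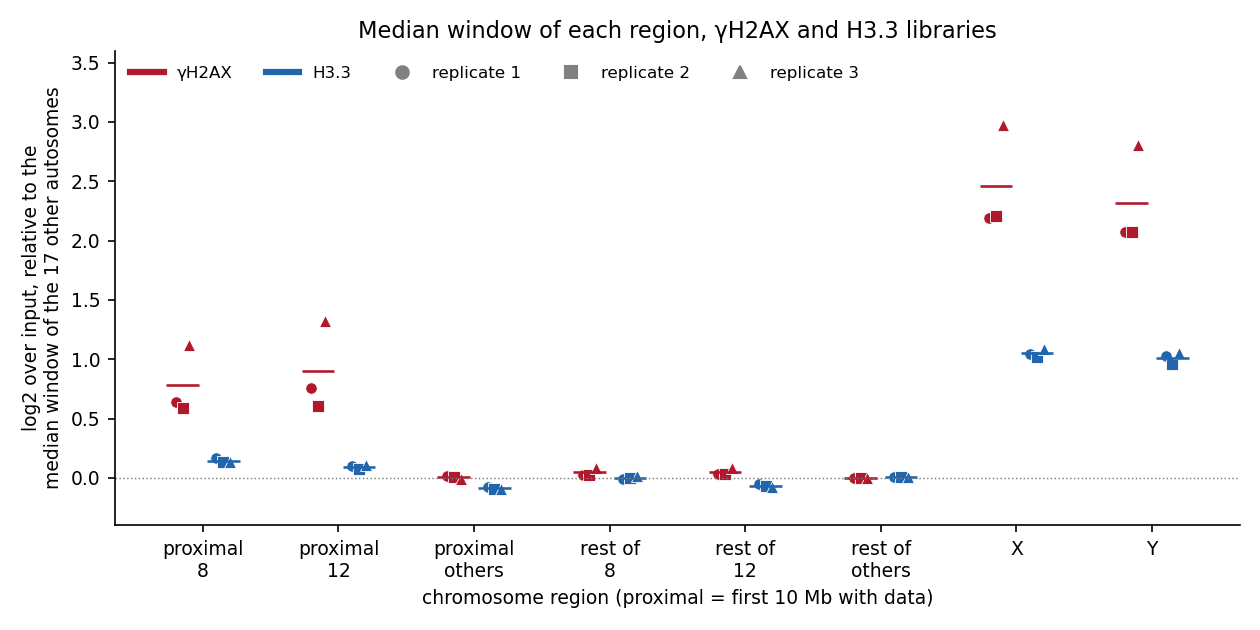
Median 50 kb window of each chromosome region (x axis) in each library, as log2 over the 1Rb_M input relative to the median window of the 17 other autosomes (y axis); symbols are replicates and the short lines are means of 3 libraries. γH2AX lay at 0.59 to 1.33 on proximal 8 and 12 and H3.3 at 0.077 to 0.16, while on X both marks were high.

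The excess of proximal 8 and 12 over the proximal windows of the other autosomes was 0.68, 0.59 and 1.19 for γH2AX and 0.22, 0.20 and 0.22 for H3.3. The means were 0.82 ± 0.32 and 0.22 ± 0.012 (SD, n = 3 each), so the excess of γH2AX was larger by a log2 of 0.61, or 1.52-fold. A two-sided exact permutation test gave p = 0.1, the smallest that 3 libraries against 3 allow, and 0.1 after adjustment over the 6 region values compared. Without γH2AX replicate 3 the difference was 0.42. In the libraries without a translocation the same excess was −0.021 for γH2AX (B6, 1 library) and 0.051 ± 0.018 for H3.3 (Cg, SD, n = 3), each over its own input.

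Counted by window, edgeR called 145 of 200 windows of proximal 8 higher in γH2AX than in H3.3 and 0 higher in H3.3, and 182 and 1 of 200 on proximal 12. Over all 53117 windows tested, 40.8% were called higher in γH2AX (21671) and 35.6% higher in H3.3 (18933), so 72.5% and 91.0% on the proximal parts of 8 and 12 stood well above that share, while the proximal windows of the other autosomes had 36.8% and 28.3%. Without γH2AX replicate 3 the calls on proximal 8 were 142 higher in γH2AX and 29 higher in H3.3, and those on proximal 12 were 176 and 1. With library totals in place of trimmed mean of M-values (TMM) scaling, the calls over all windows split into 13470 higher in γH2AX and 19640 higher in H3.3, or 40.7% in favour of γH2AX against 53.4%, and proximal 8 then had 147 and 6. Counts summed over whole regions gave a difference of 0.52 ± 0.16 on proximal 8 (log2, SE; edgeR adjusted p = 0.0267) and 0.54 ± 0.16 on proximal 12 (adjusted p = 0.0243). Without γH2AX replicate 3 these sums were 0.31 (adjusted p = 0.000254) and 0.35 (adjusted p = 0.00143). Leaving out H3.3 replicate 1, 2 or 3 gave 0.48, 0.49 and 0.50 on proximal 8, with adjusted p of 0.0691, 0.0561 and 0.0578, and leaving out H3.3 replicate 2 or 3 gave 0.49 and 0.50 on proximal 12 (0.0561 and 0.0556), so these calls were lost with the size little changed. A single window of unusual input held 30.8% of the input counts of proximal 12, and the sum without it gave 0.71 ± 0.20.

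None of the other autosomes had as large a mark difference at its centromeric end. On these autosomes the proximal mark difference (γH2AX minus H3.3, median window) ran from −0.55 on 19 to 0.26 on 7. The next highest was 0.23 on 5, against 0.64 on 8 and 0.80 on 12. By window calls, 59.5% were higher in γH2AX on proximal 5, 58.0% on 7, 51.5% on 1, 50.8% on 6 and 50.5% on 13. The lowest such share was 17.5%, on 17. On 19 the H3.3 level was 0.46, 0.60 and 0.60 and the γH2AX level 0.012, −0.079 and 0.074, so the marks parted there in the other direction (summed difference −0.63 ± 0.06, edgeR adjusted p = 0.000361). By summed counts, 21.4% of the 42 regions (proximal and rest of 21 chromosomes) were called higher in γH2AX (9) and 61.9% higher in H3.3 (26). The 9 were the proximal and remaining parts of X and Y, proximal 8 and 12, and proximal 5, 6 and 13, whose summed differences were 0.13, 0.093 and 0.064. In some of the 26 the median window went the other way. The rest of 3 had a sum of −0.063 and a median window difference of 0.13, and proximal 4 had −0.047 and 0.10. In others, such as proximal 19 (−0.63 and −0.55), sum and median window had the same sign. With library totals 6 regions were called higher in γH2AX, without proximal 5, 6 and 13, and 16 higher in H3.3, and leaving out H3.3 replicate 2 or 3 left 5 called higher in γH2AX.

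Between 3 and 18 Mb the difference was largest in the band next to the joined centromeres, and farther out it did not decline steadily. On 8 the median window of γH2AX stood at 0.81, 0.77 and 1.31 between 3 and 8 Mb, at 0.46, 0.32 and 0.91 between 8 and 13 Mb and at 0.21, 0.19 and 0.46 between 13 and 18 Mb. H3.3 on 8 was 0.061 to 0.17, then 0.15 to 0.22, then −0.10 to −0.044 in the same bands. On 12 γH2AX went from 0.92, 0.82 and 1.52 through 0.45, 0.35 and 0.85 to 0.26, 0.22 and 0.57, and H3.3 from 0.22 to 0.23 through −0.065 to −0.026 to −0.076 to −0.066. The band median of H3.3 on 12 was above 0 in the first 5 Mb and below it in the next 2 bands, while that of γH2AX stayed above 0.2 in every library to 18 Mb. The mean difference on 8 was 0.86, 0.37 and 0.36 in these bands, 0.19 between 18 and 23 Mb and 0.24 between 33 and 43 Mb. On 12 it was 0.86, 0.60 and 0.42, then 0.17 between 18 and 23 Mb, where γH2AX stood at −0.10, −0.15 and −0.12, and 0.46 between 33 and 43 Mb. Beyond 63 Mb it was −0.14 on 8 and −0.13 on 12. The low γH2AX level between 18 and 23 Mb of 12 depended on the input in some windows. At 19300001, 20100001 and 22050001 mean γH2AX was −0.28, −0.33 and −0.31. Over the Cg input it was 0.087, 0.053 and −0.21 there.

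In bins of 1 Mb, all 3 γH2AX libraries lay above all 3 H3.3 libraries without a break from 3 to 11 Mb of 8 and from 3 to 16 Mb of 12. Over the 2662 bins of the genome, 48% had γH2AX above in this way and 36.8% H3.3 above. Only 1 of the other 17 autosomes, 18, had a run that began at 3 Mb, and it was 1 Mb long. The run on 8 ended where H3.3 was high: between 11 and 12 Mb of 8 H3.3 stood at 0.32, 0.50 and 0.45 and γH2AX at 0.29, 0.20 and 0.76. On autosomes, runs of γH2AX above H3.3 were also found far from the joined centromeres, up to 29 Mb long on the other 17 (58 to 87 Mb of 16), and on 12 from 34 to 51 Mb. On X and Y all 167 and 91 bins had γH2AX above. The longest run of H3.3 above γH2AX outside 8 and 12 was 21 Mb (110 to 131 Mb of 5).

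**Figure D2:**
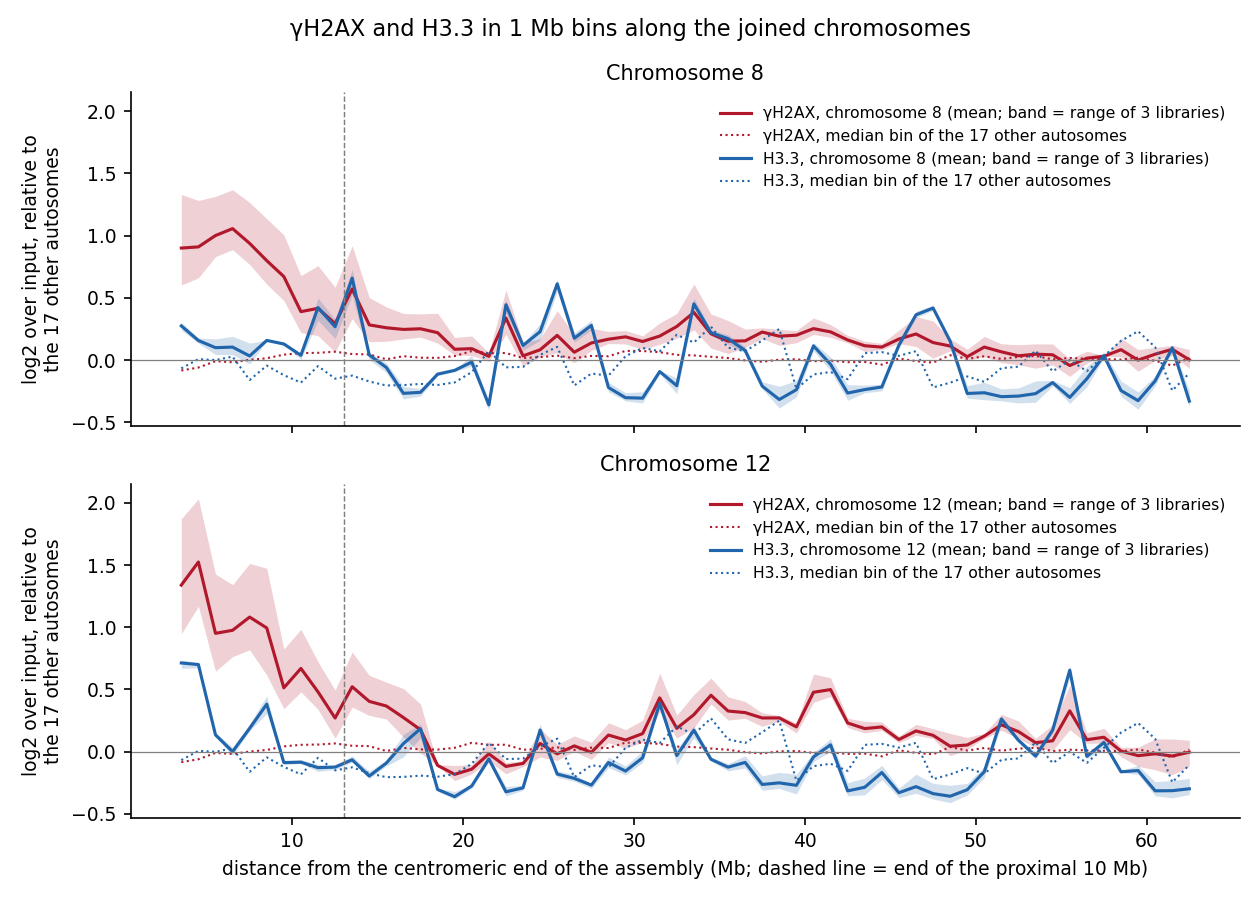
γH2AX and H3.3 in 1 Mb bins by distance from the centromeric end of the assembly (x axis, Mb) on chromosomes 8 and 12, as log2 over input relative to the 17 other autosomes (y axis); lines are means, bands the range of 3 libraries, dotted lines the median bin of the other autosomes. The mean of γH2AX was highest in the bin starting at 6 Mb of 8 and at 4 Mb of 12, and it was lower toward 18 Mb. On 8 the H3.3 band first overlapped the γH2AX band in the bins starting at 11, 12 and 13 Mb.

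A window was called high in a mark where all 3 libraries exceeded a log2 of 0.2 and low where all 3 lay under −0.2. On proximal 8, 164 of 200 windows were high in γH2AX, 50 in H3.3 and 40 in both. On proximal 12 these were 178, 67 and 66 of 200. On the proximal parts of the other autosomes 134 of 3390 windows were high in γH2AX, 807 in H3.3 and 78 in both. Away from the centromeres, γH2AX was high in 6.42% of windows of 8, 12.7% of 12 and 3.33% of the other autosomes, and H3.3 in 32.4, 28.5 and 32.9%. Both marks share the 1Rb_M input in these counts. With H3.3 over the Cg input instead, so that the marks share none, 109 windows of proximal 8 and 12 were high in both, which is 31.9% of those high in γH2AX and 85.8% of those high in H3.3. Over the other autosomes 659 were high in both, 45.2% of those high in γH2AX and 4.57% of those high in H3.3. Of all windows, 85.5% on proximal 8 and 12 together and 3.38% on the other autosomes were high in γH2AX. With these inputs the chromosomes departed from this in opposite directions. On proximal 8, 73.3% of windows high in H3.3 were high in γH2AX, against 82.0% of all windows there. On proximal 12 these shares were 97.0 and 89.0%. With the inputs exchanged they were 84.0 and 85.5% on proximal 8, and 98.5 and 89.5% on proximal 12. The departure on 8 thus depended on the input. Of all windows, 31.75% on proximal 8 and 12 and 33.4% on the other autosomes were high in H3.3 over the Cg input.

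**Figure D3:**
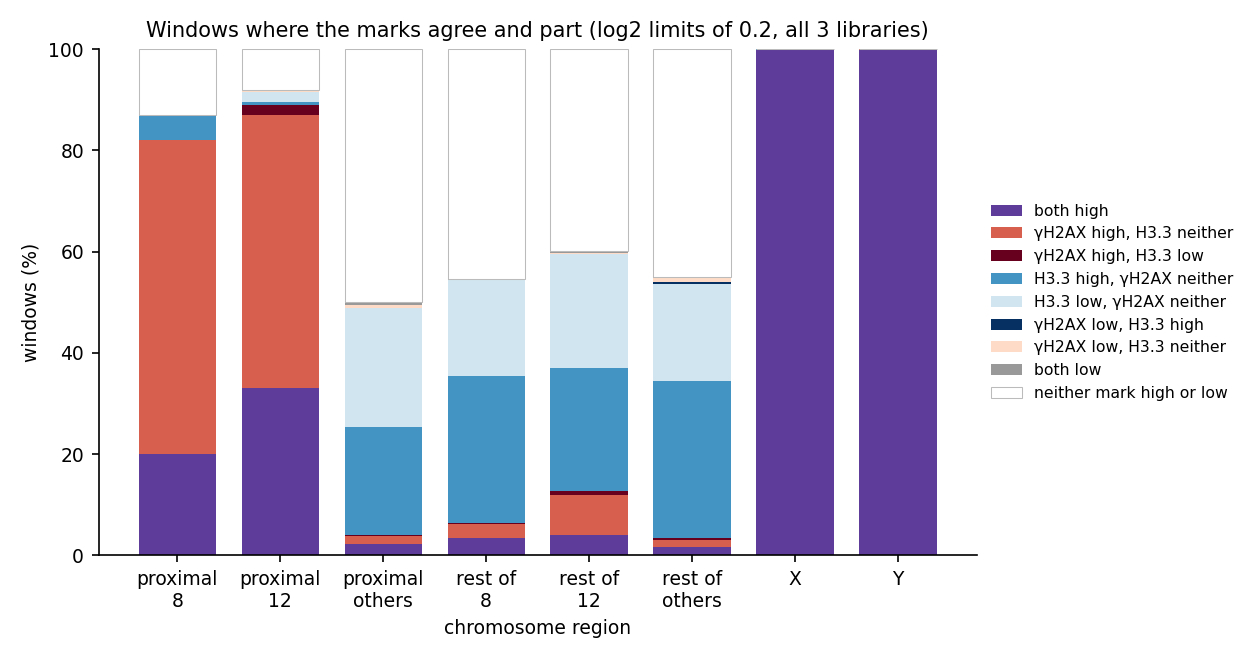
Share of 50 kb windows (y axis, %) of each chromosome region (x axis) that were high or low in each mark, all 3 libraries beyond a log2 of 0.2 over the 1Rb_M input. Proximal 8 and 12 were mostly high in γH2AX with H3.3 neither high nor low (62.0 and 54.0%), the other autosomes mostly in H3.3 classes or in none, and X and Y were high in both marks in 99.9 and 99.8% of windows.

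On the other autosomes 87 of 43154 windows were high in γH2AX and low in H3.3, 126 were the reverse, 714 were high in both and 145 low in both. Far more windows, 13063 high and 8473 low respectively, stood out in H3.3 with γH2AX neither high nor low. On proximal 8 and 12 together, 4 of 400 windows were high in γH2AX and low in H3.3 and 0 the reverse. The opposed counts on the other autosomes were 162 and 255 without γH2AX replicate 3, and 219 and 190 with H3.3 over the Cg input, which gave 12 and 0 on proximal 8 and 12.

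How the marks varied together across windows differed between γH2AX libraries. With γH2AX over the 1Rb_M input and H3.3 (mean of 3 libraries) over the Cg input, Pearson's r over 43107 windows of the other autosomes was 0.086, −0.30 and 0.39 for γH2AX replicates 1 to 3. With the inputs exchanged it was 0.23, −0.16 and 0.46. No single sign describes these libraries; windows of 1 library share its depth and base composition, so r is a description. On proximal 12, over 199 windows, r was 0.77, 0.67 and 0.78, and on proximal 8, over 200 windows, −0.050, −0.22 and 0.024. Within proximal 12 the windows with more H3.3 thus held more γH2AX in each of the libraries, and within proximal 8 this was not seen. Both marks on 12 were also lower between 8 and 13 Mb than between 3 and 8 Mb. Mean γH2AX was 0.55 against 1.09 there, and mean H3.3 −0.047 against 0.23. How much of r on proximal 12 goes with position was not tested.

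The number of protein-coding genes in a window separated the marks over most autosomal DNA. Away from centromeres on the other autosomes, H3.3 stood at −0.16, −0.22 and −0.23 in windows without a gene and at 0.67, 0.80 and 0.81 in windows with 3 or more. γH2AX stood at −0.0079, 0.029 and −0.044 without a gene and at −0.013, −0.12 and 0.062 with 3 or more, so the libraries differed in sign. Of the windows without a gene 55.6% were called higher in γH2AX, and of those with 3 or more 87.1% were called higher in H3.3. On proximal 12 both marks were higher in windows with genes: γH2AX went from 0.57, 0.50 and 1.06 in 128 windows without a gene to 1.01, 0.81 and 1.68 in 67 with 1 to 2 genes, and H3.3 from 0.015, −0.040 and −0.025 to 0.58, 0.63 and 0.64. On proximal 8 γH2AX was 0.72, 0.70 and 1.19 in 119 windows without a gene and 0.54, 0.41 and 0.99 in 76 with 1 to 2, while H3.3 was 0.14, 0.060 and 0.099 and then 0.22, 0.33 and 0.32. Only 5 windows of proximal 8 held 3 or more genes. There γH2AX was 0.92, 0.65 and 1.53 and H3.3 0.77, 0.96 and 0.95, with overlapping libraries. Proximal 8 and 12 held 59.5 and 64.0% of windows without a gene, against 43.2% on the proximal parts of the other autosomes. Within windows of 1 to 2 genes, 57.9 and 79.1% were still called higher in γH2AX on proximal 8 and 12, against 24.2% on the others.

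**Figure D4:**
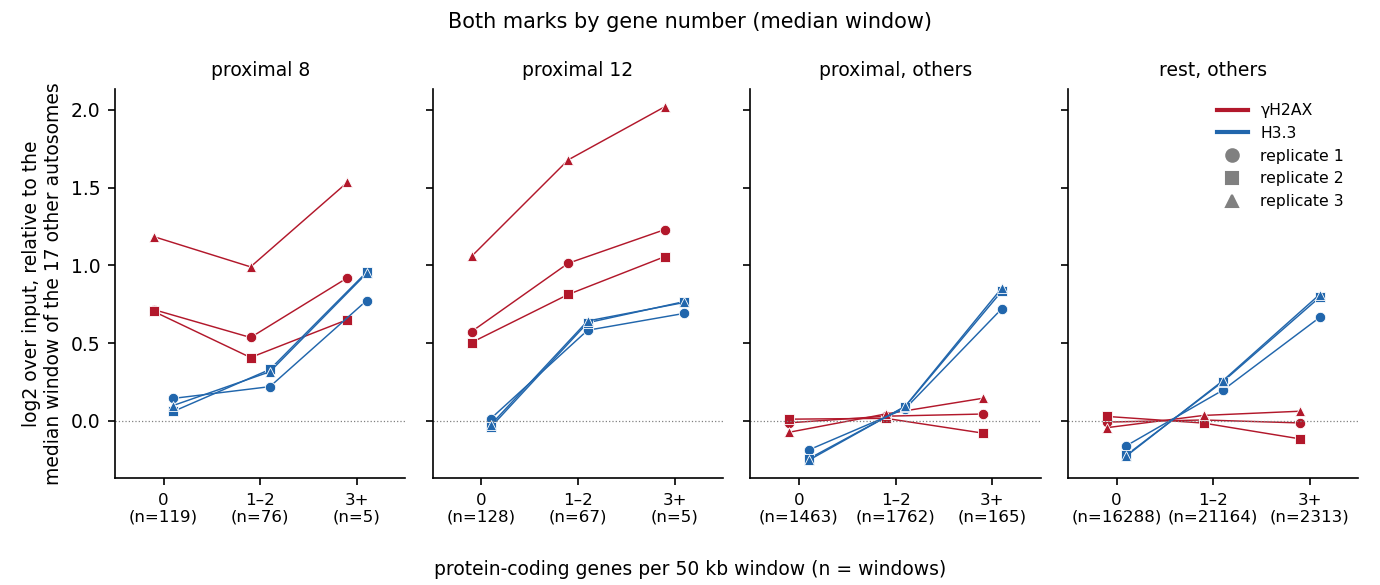
Median window by number of protein-coding genes (x axis) on proximal 8 and 12 and, for the other autosomes, their proximal parts and the remainder, as log2 over input (y axis); lines join the values of 1 library. H3.3 went up with gene number in all 4 panels, and γH2AX lay above 0.4 in every class of proximal 8 and 12. The class of 3 or more genes held 5 windows on proximal 8 and 5 on proximal 12.

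Individual windows on 8 and 12 were named by the smallest adjusted p in runs of called windows. The 6 on 8 that were higher in γH2AX included Nrg1, a ligand of the ErbB receptors (32400001 to 32450000; mm10 throughout), with γH2AX at 0.31, 0.36 and 0.37 and H3.3 at −0.27, −0.27 and −0.43. The groups did not overlap, and the difference was 0.66 ± 0.06 (log2, SE; edgeR adjusted p = 1.4e-07). Sgcz, a sarcoglycan gene (0.70), Unc5d, a netrin receptor gene (0.58), Adam34l (0.48) and the beta-defensin gene Defb38 (0.43) were the others beyond the proximal 10 Mb. In the proximal part, the window of Cd209e and Cd209d, C-type lectin receptor genes (3850001 to 3900000), had γH2AX at 0.79, 0.59 and 1.13 and H3.3 at −0.10, −0.13 and −0.037, a difference of 0.93 ± 0.11 (adjusted p = 7.02e-07). On 12 the named windows were at Hdac9, a class IIa histone deacetylase gene (0.56), Gphn, which encodes a scaffold protein of inhibitory synapses (0.48), Sh3yl1 (0.41), Myt1l, a neuronal transcription factor gene (0.38), Slc25a21, a mitochondrial carrier gene (0.36), and Gm9257 (0.32). None of these 6 lay in the proximal 10 Mb of 12, where 182 of 200 windows were called with a median difference of 0.70. The naming ranks windows by adjusted p and not by the size of the difference.

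All windows of 8 and 12 named for H3.3 lay beyond 64 Mb. On 8, Smarca5, the ISWI remodeller ATPase gene (80700001 to 80750000), had H3.3 at 0.92, 1.02 and 1.00 and γH2AX at −0.045, 0.0068 and 0.13, a difference of −0.97 ± 0.11 (adjusted p = 5.13e-07). The window of Cklf and Cmtm2a, chemokine-like factor genes, and that of Smim7 and Tmem38a, the latter a cation channel of the sarcoplasmic reticulum, both differed by −1.03. Otud4 with Abce1 (−0.84), Nfat5, an osmotic stress transcription factor gene (−0.75), and the retromer gene Vps35 with the replication origin gene Orc6 (−0.75) completed the 6. On 12 they were Ak7, an adenylate kinase gene of cilia and flagella, with the poly(A) polymerase gene Papola (−0.94), the protein phosphatase 4 subunit genes Ppp4r3a (−0.93) and Ppp4r4 (−0.82), the sphingosine phosphatase gene Sgpp1 with Gm40447 (−0.83), Klhl28 with Togaram1 (−0.74) and 2700049A03Rik with Dact1 (−0.73). At these 12 windows the 3 H3.3 libraries lay above 0.5 and the 3 γH2AX libraries between −0.20 and 0.22.

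On the other autosomes, windows were named by the same rule. γH2AX was higher at the protocadherin gene Pcdh17 (14, 84500001 to 84550000), with γH2AX at 0.36, 0.41 and 0.38 and H3.3 at −0.30, −0.50 and −0.41 (difference 0.76 ± 0.06; edgeR adjusted p = 7.74e-08). It was also higher at Cadm2 (0.74) and Robo2 (0.58) on 16, Slit2 (0.65) and Sema3e (0.50) on 5, Mei4 (0.57) on 9, Nlgn1 (0.56) on 3, Slco1a6 (0.53) on 6 and Elavl4 (0.52) on 4. Robo2 encodes a receptor for Slit2, Nlgn1 a synaptic adhesion protein and Mei4 a protein needed for meiotic DNA break formation. H3.3 was higher at Sycp2, the lateral element gene of the synaptonemal complex (2, 178350001 to 178400000), at 1.02, 1.04 and 1.16 against −0.29, −0.12 and −0.54 for γH2AX, a difference of −1.40 ± 0.10 (adjusted p = 5.49e-08). It was also higher at the nucleoporin gene Nup98 (−1.37), Ubap2l (−1.30), the histone genes H2ac4 and H3c2 (−1.15), the topoisomerase gene Top1 (−1.15), Rps6ka4 with Ccdc88b (−1.15), the end-joining gene Nhej1 with Slc23a3 (−1.13), Ache with Ufsp1 (−1.08), the kinase gene Smg1 of nonsense-mediated decay (−1.08) and Slc26a6 with Tmem89 (−1.02).

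The 4 windows of 8 and 12 named for both marks high all lay next to the centromeres. On 12, Dnmt3a, the de novo DNA methyltransferase gene (3800001 to 3850000), stood at 1.46, 1.10 and 2.17 in γH2AX and at 0.88, 1.07 and 1.12 in H3.3. Ubxn2a with Atad2b stood at 1.40, 1.18 and 2.02 against 1.05, 1.05 and 1.05, and Kif3c with Asxl2 at 1.30, 1.11 and 1.97 against 1.10, 1.10 and 1.13. On 8, Tgfbr3l with Snapc2 (4250001 to 4300000) stood at 1.04, 0.85 and 1.61 against 1.02, 1.14 and 1.20, with overlapping libraries and a difference of 0.063 (edgeR adjusted p = 0.811). The difference passed the test at Dnmt3a (0.60, adjusted p = 0.0393) and not at Kif3c (0.38, adjusted p = 0.157) or Ubxn2a (0.52, adjusted p = 0.0577). The libraries of the marks overlapped at Dnmt3a and Kif3c and not at Ubxn2a. Over the Cg input mean γH2AX and H3.3 were 1.40 and 0.85 at Dnmt3a and 1.36 and 1.01 at Kif3c. They were 1.47 and 0.98 at Ubxn2a and 1.21 and 1.17 at Tgfbr3l. On the other autosomes the windows highest in both reached less: Mycbp2 on 14 stood at a mean of 0.64 in γH2AX and 0.79 in H3.3, Usp6nl on 2 at 0.64 and 0.69, Babam2, a subunit gene of BRCA1-A complexes, on 5 at 0.68 and 0.63, and Tcf12 on 9 at 0.58 and 0.60. Over the Cg input these means were lower, at 0.46 and 0.61, 0.50 and 0.55, 0.44 and 0.40, and 0.51 and 0.52.

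Windows low in both marks were fewer, and some named ones moved with the input. On 12, Gm3993 with Gm9265 (20100001 to 20150000) had γH2AX at −0.21, −0.35 and −0.43 and H3.3 at −0.64, −0.52 and −0.63. Over the Cg input the mean there was 0.053 for γH2AX and −0.21 for H3.3, and the window at 19300001 likewise went to 0.087 and −0.052. The Cg input lay below the 1Rb_M input by a log2 of −0.38 and −0.37 in these windows. On the other autosomes Mup7 on 4, a major urinary protein gene with near-identical copies, had means of −0.48 and −0.57, or −0.26 and −0.35 over the Cg input.

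X and Y were high in both marks, and γH2AX was the higher. X stood at 2.19, 2.21 and 2.98 in γH2AX and at 1.05, 1.02 and 1.08 in H3.3, a difference of 1.41, or 2.66-fold. Y stood at 2.07, 2.07 and 2.80 against 1.02, 0.96 and 1.05. The libraries did not overlap (exact permutation p = 0.1 for each), and 3304 of 3310 windows of X and 1788 of 1791 of Y were called higher in γH2AX. H3.3 was higher in 2 windows of X. Of these the window of Asmt, a melatonin synthesis gene of the pseudoautosomal region, where X and Y pair (170650001 to 170700000), had H3.3 at 1.69, 1.72 and 1.78 and γH2AX at 1.06, 0.94 and 1.61, a difference of −0.52 ± 0.12 (edgeR adjusted p = 0.000529). It had 401 input counts, and reads from its X and Y copies cannot be told apart. Next to the joined centromeres γH2AX lay 0.82 and H3.3 0.22 above their proximal backgrounds on average, against 2.46 and 1.05 on X above the other autosomes.

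In 11 of the 13 gene lists, autosomal windows were mostly called higher in H3.3. Among all autosomal windows 34.5% were called higher in γH2AX and 39.4% higher in H3.3, with a median difference of −0.0039, and away from centromeres on the other autosomes 55.9% of windows with 1 to 2 genes and 87.1% with 3 or more were higher in H3.3. The shares of the Sertoli (59.1%) and of the peritubular and blood list (55.6%) lay close to the first of these. Of 61 windows of meiotic prophase genes, 51 were higher in H3.3 and 8 in γH2AX (median −0.72), with the synaptonemal complex genes Sycp2 (−1.40) and Sycp1 (−1.14) and the cohesin gene Smc1b (−0.97) first, and Mei4 (0.57) in the other direction. Of 41 windows of DNA damage signalling genes, which include the kinases that phosphorylate H2AX, 38 were higher in H3.3 (median −0.80), led by Atr (−1.07), Rad50 (−0.85) and Brca2 (−0.71), and 1 was higher in γH2AX, at Atm (0.25, edgeR adjusted p = 0.0159). The Atm call was lost without γH2AX replicate 3 (0.13, adjusted p = 0.0600) and without H3.3 replicate 2 (0.20, adjusted p = 0.0810). Of 17 windows of H3.3 genes and chaperones 16 were higher in H3.3 and 0 in γH2AX (median −0.72), with the HIRA complex gene Ubn1 (−1.13), H3f3a (−1.03) and Asf1a (−0.72).

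Spermatid genes had 23 of 28 windows higher in H3.3 and 2 in γH2AX (median −0.61), with the sperm lactate dehydrogenase gene Ldhc at −1.42, Zpbp2 at −1.12 and Adam2 at −1.10, and the acrosomal genes Acrv1 (0.19) and Spaca1 (0.17) the other way. With library totals those at Acrv1 (adjusted p = 0.111) and Spaca1 (0.265) were not called. Spermatogonial genes had 30 of 37 higher in H3.3 and 0 in γH2AX (median −0.43), with Dazl (−0.89), Sall4 (−0.84) and Id4 (−0.69) first. For the somatic cells of the testis, Sertoli genes had 13 of 22 higher in H3.3 and 3 in γH2AX, Leydig genes 10 of 12 and 0, and peritubular and blood genes 10 of 18 and 5. Their medians were −0.40, −0.48 and −0.23. Fshr, the FSH receptor gene of Sertoli cells, was higher in γH2AX (0.27), as were the leukocyte genes Ptprc (0.26) and Adgre1 (0.23); Shbg (−1.19), Star of steroid synthesis (−1.02) and Cd68 (−1.42) were higher in H3.3. The calls at Ptprc (adjusted p = 0.109) and Adgre1 (0.0621) were lost with library totals. In windows of 50 kb a neighbour's signal counts too, and the levels are of a mark and not of expression, so they do not check the tissue label.

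Housekeeping genes had 22 of 22 windows higher in H3.3 (median −1.03; Gusb −1.18, Eef1a1 −1.01, Sdha −0.82) and histone gene clusters 13 of 13 (median −1.10; H1f1 −1.15, H1f2 −1.10, H2ac13 −1.10). Zinc finger genes had 368 of 478 higher in H3.3 and 13 in γH2AX (median −0.44). Zfp91 (−1.12) and Zfp638 (−1.03) were higher in H3.3, and Zfp958, on proximal 8, was higher in γH2AX (0.58). The olfactory and vomeronasal receptor lists went the other way, with medians of 0.17 and 0.24. Of their windows, 62 and 18 were higher in H3.3, and 289 of 575 and 221 of 324 were higher in γH2AX. Olfr203 on 16 (0.53) and Vmn2r58 on 7 (0.41) were among the latter. These shares higher in γH2AX were 50.3 and 68.2%, against 34.5% of all autosomal windows. Among windows without a gene, away from centromeres on the other autosomes, the share was 55.6%. With library totals 71 of 575 olfactory windows were higher in γH2AX and 60 in H3.3, and 89 of 324 and 16 vomeronasal ones. That setting called 16.0% of windows higher in γH2AX away from centromeres on the other autosomes, and 16.9% on their proximal parts. The olfactory share then lay below these and the vomeronasal share above. In the olfactory windows γH2AX itself was near the autosomal median, at −0.056, 0.0022 and −0.14, and H3.3 was low, at −0.20, −0.27 and −0.28, as in windows without a gene. Members of these families are near-identical in part, so reads may be split between copies. The median kept its sign under the 10 other settings run for each of the 13 lists, while the calls higher in γH2AX ranged from 71 to 351 for olfactory and from 89 to 257 for vomeronasal receptor windows.

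Beyond the proximal 10 Mb, 8 and 12 came close to the other autosomes. The median window stood at 0.028, 0.027 and 0.087 on 8 and at 0.033, 0.035 and 0.083 on 12 for γH2AX, and at −0.0076, −0.000085 and 0.012 and at −0.054, −0.067 and −0.079 for H3.3. Against the same part of the other autosomes, γH2AX was 0.049 ± 0.031 and H3.3 −0.039 ± 0.0026 on the pair (SD, n = 3), a difference of 0.089 or 1.06-fold, with libraries that did not overlap (exact permutation p = 0.1). Between 33 and 43 Mb of 12, γH2AX reached 0.27, 0.30 and 0.40 with H3.3 at −0.17 to −0.091, and 88.0% of those windows were called higher in γH2AX; between 33 and 43 Mb of the other autosomes 32.6% were. Summed counts gave −0.14 ± 0.04 for the rest of 8 (edgeR adjusted p = 0.0122) and −0.052 for the rest of 12 (adjusted p = 0.182), opposite in sign to the median windows. Each of the 17 other autosomes also had a negative sum for its rest, from −0.42 on 11 to −0.015 on 16. The sum of the rest of 12 was called without γH2AX replicate 3 (−0.088, adjusted p = 0.000857) and without H3.3 replicate 1 (−0.089, adjusted p = 0.0177).

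The 3Rb cross, in which RBF/Dnj is known to join 1 with 3, 8 with 12 and 9 with 14 although the labels name only the 8.12 join of 1Rb, had the same pattern on more chromosomes. On proximal 8 its γH2AX stood at 0.58, 0.66 and 0.65 and its H3.3 at 0.083, 0.073 and 0.053, and on proximal 12 at 0.85, 0.92 and 0.90 and at 0.027, 0.021 and 0.0055. The mark difference of 3Rb exceeded that of 1Rb in 6.57% of 53118 windows and fell short of it in 6.81% (edgeR interaction over 12 libraries). On proximal 8 and 12 no window had a larger difference in 3Rb and 7 of 400 a smaller one, all on 8. The summed interaction was −0.094 ± 0.15 on proximal 8 (adjusted p = 0.686) and 0.049 ± 0.15 on proximal 12 (adjusted p = 0.811), which does not show that the crosses are alike. Without γH2AX 1Rb_M replicate 3 it was 0.088 (adjusted p = 0.0558) and 0.22 (adjusted p = 0.0069), so that library sets whether the crosses differ on 12.

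With library totals 1 of the 42 regions had a larger summed mark difference in 3Rb and 2 a smaller one, against 7 and 0 with TMM scaling. On proximal 1, 199 of 200 windows had a larger mark difference in 3Rb, with γH2AX at 0.54, 0.58 and 0.59 and H3.3 at −0.19, −0.15 and −0.14, against γH2AX at −0.043, 0.026 and −0.098 and H3.3 at −0.18, −0.26 and −0.25 in 1Rb. The summed interaction was 0.58 ± 0.05 (edgeR adjusted p = 7.2e-06). Proximal 3 had 186 of 200 such windows (0.47 ± 0.07, adjusted p = 0.000555) and proximal 14 had 103 of 200 (0.27 ± 0.04, adjusted p = 0.000494). Proximal 9 had 196 of 200, while its sum was 0.14 ± 0.18 (adjusted p = 0.624); 1 window, at 3000001, held 92.8% of the input counts of that region, and the sum without windows of unusual input was 0.57 ± 0.07 (adjusted p = 0.000184). With library totals proximal 1 kept its call (0.46, adjusted p = 0.00759), and proximal 3 (0.34, adjusted p = 0.0589) and 14 (0.15, adjusted p = 0.159) did not. In the controls the mark difference, B6 γH2AX minus Cg H3.3, was −0.09 on proximal 8, 0.15 on 12 and 0.25 on 1, 3 values from 1 γH2AX library and described without a test. In 1Rb the corresponding values were 0.64, 0.80 and 0.19.

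**Figure D5:**
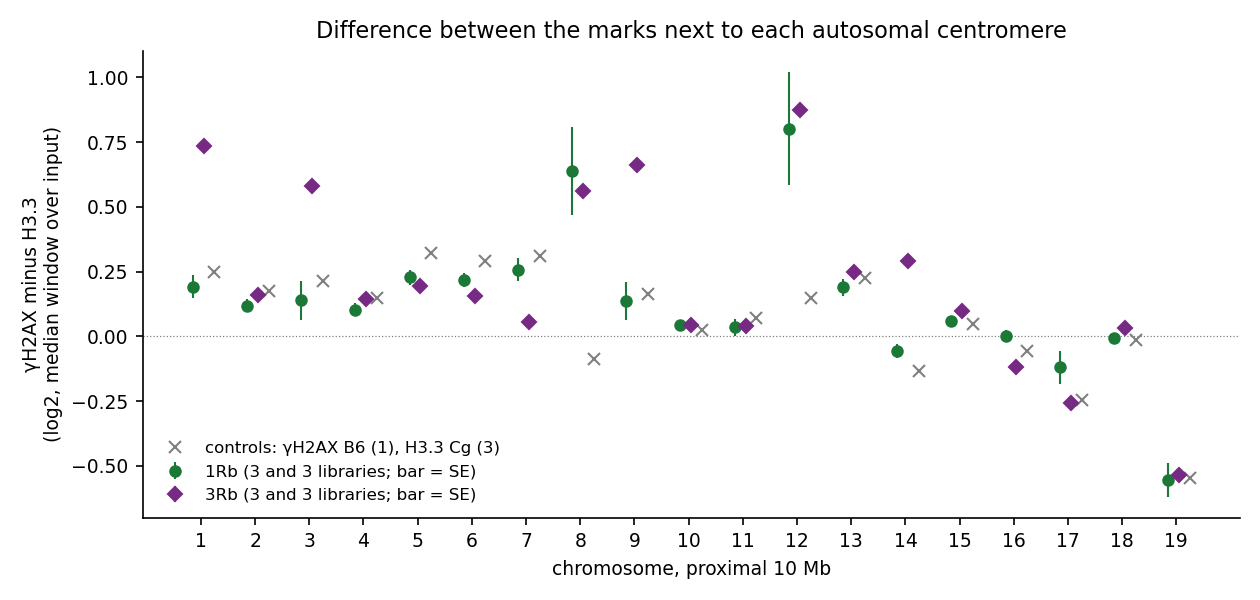
Mark difference of the proximal 10 Mb of each autosome (x axis: chromosome), γH2AX minus H3.3 as the mean log2 of the median window (y axis), in 1Rb, 3Rb and the controls; bars are SE over 3 and 3 libraries, and the controls have 1 γH2AX library and no bar. In 1Rb 8 (0.64) and 12 (0.80) stood highest, in 3Rb 1, 3 and 9 joined them, and 19 was the lowest in all 3.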

How the data were processed

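The authors deposited counts per 50 kb window for each ChIP-seq library, 54520 windows of mm10. The tools named are CASAVA 1.8 and BWA, with the build mm10, per the submitters' processing notes; their settings, and the handling of duplicates and of reads that map to several places, are not given in the sources used here. Groups followed the titles. Protein-coding genes came from RefSeq (GRCm38.p6; 21887 genes, 29835 windows overlap 1 or more). The regions, lists and tests were chosen with earlier results of these data known.

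Deposited counts were tested per window and, summed, over 42 regions with edgeR 4.0.16 (R 4.3.3). This was a quasi-likelihood test where the mean count reached 10, with TMM scaling and p adjusted by Benjamini-Hochberg, called under 0.05. The window test was tried on simulated counts with the same spread in every library and few windows changed. That check does not cover an outlying library or a genome where most windows differ. Log2 ratios to input used 0.5 added to each count and windows with at least 10 input counts. Single values were compared with exact permutation tests (scipy 1.17.1). The median window difference of the other autosomes moved from −0.018 (TMM) to −0.064 with library totals and 0.018 with their median as scale.

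Windows were named as follows: called windows of 1 direction that touch, or have 1 between, were merged and represented by the smallest adjusted p; the first 6 on 8, 6 on 12, 10 on the other autosomes (at most 2 per chromosome) and 3 on X and on Y were taken per direction, with non-overlapping libraries, gene windows first and up to 2 genes. The 1519 windows whose 1Rb_M input exceeded its median 5-fold or fell under 0.2 of it were left out of naming. For both marks high or low, the 4 windows on 8 and 12 and 6 on the others with the largest smaller mean were taken, and up to 3 members per list and direction. A window that this rule names is not reported here. Alternatives were DESeq2 1.42.0, other scalings, filters, inputs, region sizes and limits, a replicate block, and each library left out. No sequences are printed, since a 50 kb window points to no promoter or site.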

Additional observations from a re-analysis of the deposited data

Results flagged for a closer look

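The mark difference itself differed between 3Rb and 1Rb, by the edgeR interaction over 12 libraries, in 7 of 42 regions, and all 7 were larger in 3Rb. They were proximal 1 (0.58), proximal 3 (0.47), proximal 14 (0.27), the rest of 14 (0.17), proximal 15 (0.076), the rest of 13 (0.069) and the rest of 3 (0.058), as log2 values. The regions larger and smaller in 3Rb numbered 1 and 2 with library totals, 4 and 0 with a replicate block, 8 and 6 without γH2AX 1Rb_M replicate 2 and 18 and 2 without replicate 3. By window the difference passed in 7109 of 53118 windows, 3492 larger and 3617 smaller in 3Rb. That count went to 16804 without γH2AX 1Rb_M replicate 3 (10791 larger and 6013 smaller), the library with 18.9% of its counts on X. With library totals the windows split into 1895 larger and 8979 smaller, or 17.4% larger against 49.1%.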

How the results depend on the processing

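Windows higher in γH2AX numbered 21671, and 13470 with library totals; with each library left out they ran from 16750 to 22756, and those higher in H3.3 from 17607 to 20241. The regions called numbered 35, and 22 with library totals. The excess mark difference of proximal 8 and 12 was 0.61 over 10 Mb, 0.85 over 5 Mb and 0.25 over 20 Mb, and 0.42 to 0.72 with each library left out. Windows high in both marks on proximal 8 and 12 numbered 106, 161 at a limit of 0.1 and 65 at 0.4. Windows whose mark difference differed between the crosses numbered 7109, 10874 with library totals, and from 4515 (without γH2AX 3Rb replicate 2) to 16804 (without γH2AX 1Rb_M replicate 3) with each library left out. The cause of these shifts was not tested. Replicate numbers are shared between samples of different age and pair no animals: deviations of same-numbered libraries correlated at −0.057, −0.39 and 0.38. With a replicate block 21809 windows were higher in γH2AX and 18701 in H3.3, 33 regions were called, and 7941 windows differed between the crosses. With library totals and with DESeq2 (19161 against 20023) calls higher in H3.3 outnumbered those higher in γH2AX. The interaction on proximal 8, −0.094, was 0.088 without γH2AX 1Rb_M replicate 3; neither was called. Of 102 named windows under 12 settings each, 1213 of 1224 values kept their direction and side of the threshold and 11 lost their call, in 6 windows: Atm, Acrv1, Spaca1, Adgre1, Ptprc and Zfp521; none changed direction. Depth gives a counting error of 3.15 to 3.84% at the median window.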
